A study of Homo sapiens with 2 samples.

Results

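Among the regions bound by TP73 antibody in TL-Om1 cells, 2491 peaks lay close to another peak, with a neighbouring summit at most 1000 bp away on the same chromosome. The summit is the base that the authors' list marks as the highest point of a peak. These peaks were chosen by that distance alone, over the 22 autosomes. They made up 13.5% of the 18520 autosomal peaks and 13.2% of all 18908 peaks in the authors' list. TL-Om1 is an established line of adult T-cell leukaemia, a malignancy of T cells that carry a human retrovirus. The series holds 1 ChIP library made with TP73 antibody and 1 input library of whole cell extract without antibody, both from TL-Om1 cells grown in RPMI-1640 with 10% serum and fixed for 10 min with formaldehyde. Both libraries come from the same line, and the labels name no change to the TP73 gene in either.

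TP73 is a transcription factor of the p53 family, and the antibody recovers DNA to which it is cross-linked. The family binds DNA as a tetramer on a response element built from a pair of short, similar repeats, and elements can lie next to each other in the regulatory DNA of a target gene. A peak caller draws a region around each place where reads pile up, so neighbouring sites of binding can be reported as separate peaks or as 1 wide peak, depending on how the signal falls between them. Neither sequence nor gene annotation of hg19, the build of the list, was used here, so regions are given by position, counted from 1, without the genes or motifs they hold.

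With 1 ChIP library nothing measures the spread between cultures. The spacing, width, fold and q-value of a peak all come from the signal that placed the summits, so every value below is a description of this list and none is tested. Fold means the authors' fold enrichment of the ChIP over the control at the summit, and −log10 q is their q-value for the same point. Read totals are not a column of the list, so the depth behind each peak is not given.

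Most of the close peaks came in pairs. When summits were chained wherever consecutive ones were at most 1000 bp apart, the 2491 peaks formed 1187 clusters. Pairs made up 1083 of these (91.2%) and held 2166 peaks. Another 91 clusters (7.67%) had 3 summits and 13 (1.1%) had 4, and no cluster on the autosomes had more. The 104 clusters of 3 or 4 summits together held 325 peaks. All 1187 clusters spanned 1.14 Mb from outer edge to outer edge, of which the peaks themselves covered 64.1%, or 0.733 Mb. All autosomal peaks covered 5.48 Mb. The number of members depends on how weak a peak may be: 2340 peaks had a close neighbour when only peaks with a −log10 q of at least 10 were kept, and 1079 when that value was 20.

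Neighbouring summits inside clusters were most often between 300 and 700 bp apart. The 1304 spacings had a median of 597 bp, with quartiles of 437 and 773 bp. The closest summits were 170 bp apart, on chromosome 7 in the region from 151168865 to 151169378, where the folds were 4.39 and 4.88. The next closest were on chromosome 19 from 16477297 to 16477667, at 178 bp with folds of 7.17 and 6.02, and on chromosome 17 from 62502495 to 62502901, at 200 bp with folds of 6.59 and 5.55. These 3 pairs, the only ones up to 200 bp, consisted of peaks with folds below the median of 10.3 over all members. In each pair the weaker peak had a −log10 q below 10, so no close summits were left there when that value was required, and none after peaks less than 142 bp apart had been merged. No spacing was 150 bp or less.

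The counts rose steeply and then formed a plateau rather than a sharp preferred distance. The list itself leaves little room for short spacings, because no peak was shorter than 142 bp and no gap smaller than 51 bp. How much of the rise comes from that was not tested. There were 48 spacings above 200 and up to 300 bp, 407 from there to 500 bp and 408 from there to 700 bp. The range from 300 to 700 bp held 62.5% of all 1304 spacings. Beyond it the numbers declined without a break at the limit of 1000 bp: 132 neighbours were spaced above 900 and up to 1000 bp, 122 above 1000 and up to 1100 bp, 53 above 1900 and up to 2000 bp and 40 above 2900 and up to 3000 bp. The largest spacings inside the limit were 1000, 1000 and 999 bp, and the smallest outside it were 1002, 1003 and 1003 bp. Peaks of pairs on either side of the limit had a median fold of 12.5 (spacings above 900 bp) and 11.7 (spacings up to 1100 bp), so the limit cuts through a continuous range of distances.

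**Figure D1:**
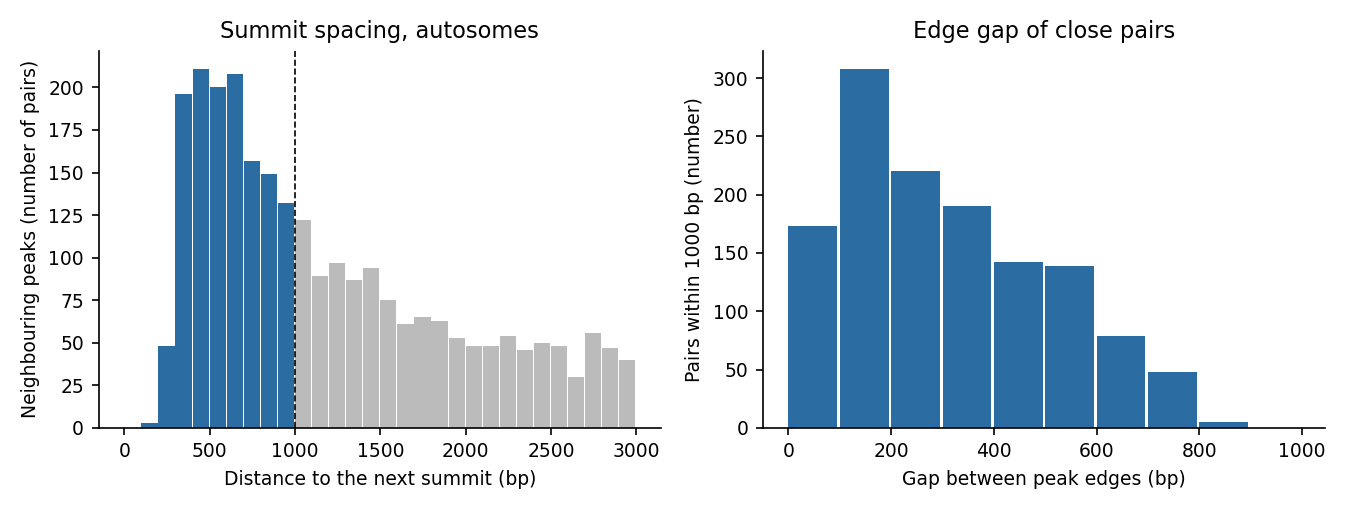
Left, number of neighbouring autosomal peaks by the distance between their summits, in classes of 100 bp, with distances inside the limit of 1000 bp (dashed line) in blue and longer ones in grey; right, the gap between the facing edges of the pairs inside the limit, in the same classes. Spacings are most frequent between 300 and 700 bp and fall gradually across the limit, and most gaps are below 500 bp.

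Between the facing edges of the peaks lay a median gap of 275 bp, with quartiles of 148 and 458 bp. Gaps and ratios of folds are given for pairs of neighbours, which can be part of a cluster of 3 or 4. The gap took up a median of 48.3% of the distance between summits. No autosomal peaks overlapped, and the smallest gap in the whole autosomal list was 51 bp, reached by 3 pairs. These were on chromosome 1 from 213188845 to 213189275 (folds 5.03 and 7.61, the former with a −log10 q of 8.9), chromosome 18 from 11921565 to 11922156 (folds 9.17 and 8.88) and chromosome 19 from 38917619 to 38918419 (folds 11.5 and 14.9). Pairs on chromosomes 3 and 4, from 99419193 to 99419644 and from 95128663 to 95129327, were among those with the next smallest gap, 52 bp. In the pair on chromosome 4 the folds were 7.74 and 29.8, a ratio of 3.85, whereas on chromosome 3 they were 7.59 and 7.23.

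Gaps up to 100 bp occurred in 173 pairs (13.3%) and gaps up to 200 bp in 481 (36.9%). In 302 pairs (23.2%) the gap was shorter than the shortest peak of the list, 142 bp. At the other end, 271 pairs (20.8%) had more than 500 bp between edges. The largest gap, 847 bp on chromosome 19 from 39108568 to 39109801, separated folds of 9.46 and 11.2. The next were 830 bp on chromosome 8 from 66894436 to 66895648, with folds of 8.88 and 7.03, and 825 bp on chromosome 11 from 65381723 to 65382895, with 6.88 and 10.3. Gaps of 803 bp on chromosome 14 from 65672257 to 65673424 and 802 bp on chromosome 9 from 15306226 to 15307429 separated folds of 8.6 and 9.46 and of 6.83 and 16. The peaks of these 5 pairs were narrow, at 146 to 237 bp; a limit on the distance between summits leaves the longest gaps to narrow peaks.

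Peaks with a close neighbour were on the whole less enriched than the rest. Their median fold was 10.3 (quartiles 7.81 and 16.2), against 11.5 (8.46 and 19.1) at the 16029 other autosomal peaks. This differed with spacing: the median was 9.15 at peaks with a neighbour up to 500 bp away. In the 132 pairs spaced above 900 and up to 1000 bp it was 12.5, above that of the other peaks. A fold of at least 20 was reached by 458 of the 2491 members (18.4%), where 22.9% of all autosomal peaks reached it. A fold of at least 50 was reached by 68 members (2.73%) and 590 other peaks (3.68%). Folds below 8 were found in 641 members (25.7%) and 3010 other peaks (18.8%). The median −log10 q was 26.4 in members and 31.4 in the others. On 19 of the 22 autosomes the members had the lower median fold; the exceptions were chromosome 15, with 11.6 against 10.5, chromosome 3, with 12 against 11.5, and chromosome 18, with 11.2 in both.

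Read by fold, the share of peaks with a neighbour fell from class to class. It was 17.6% of 3651 peaks with folds below 8, 13.7% of 5266 peaks from 8 to below 11, 12.5% of 5356 from 11 to below 20, 10.9% of 3589 from 20 to below 50, and 10.3% of 658 peaks from 50 up. Width gave no such order. The share was 14.1% for peaks below 200 bp, 12.6% from 200 to below 300 bp, 14.2% from 300 to below 500 bp and 12.9% of the 1664 peaks of 500 bp or more. Median widths were 256 bp in members and 255 bp in the other autosomal peaks. The widest peak of the list, 1716 bp, was a member.

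**Figure D2:**
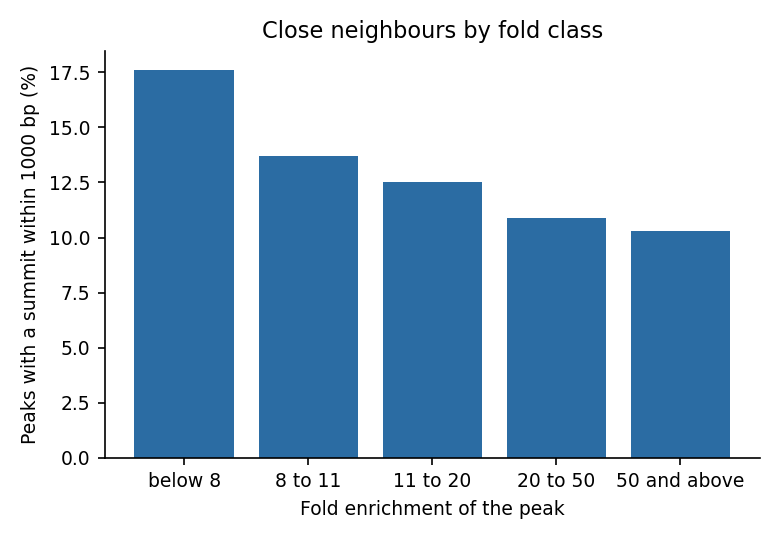
Share of autosomal peaks that have another summit within 1000 bp (bars, in percent), in 5 classes of fold enrichment from below 8 to 50 and above. The share falls from 17.6% in the lowest class to 10.3% in the highest.

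Within clusters the peaks were often unequal. The strongest peak of a cluster had a median fold of 14.6 and the weakest 8.05. A highest value of 2 or more peaks lies above a lowest one by construction, so these medians describe the range within clusters and are no comparison with isolated peaks. Over the 1304 neighbouring pairs, the stronger fold was a median of 1.56 times the weaker, with quartiles of 1.22 and 2.41. The ratio was below 1.1 in 156 pairs and at least 2 in 447 (34.3%). It reached 5 in 75 pairs (5.75%). Fold and q-value were identical in 5 pairs. The lower coordinate held the stronger peak in 662 of the 1299 pairs with unequal folds (51%).

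Neighbours of strong peaks and neighbours of weak peaks had nearly the same folds. Counted from each side of every pair, neighbours of peaks with a fold of at least 20 had a median fold of 10.7, and neighbours of peaks below 20 had 10.1. A fold of at least 20 was found at 16.9% of the former neighbours and 18.4% of the latter. Spearman's rho between the folds of neighbouring peaks was 0.0392 over the 1304 pairs, which share 1 library and in part the same control windows. Of the pairs, 871 (66.8%) had both folds below 20, 393 (30.1%) had 1 on each side of 20, and 40 (3.07%) had both at or above it.

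**Figure D3:**
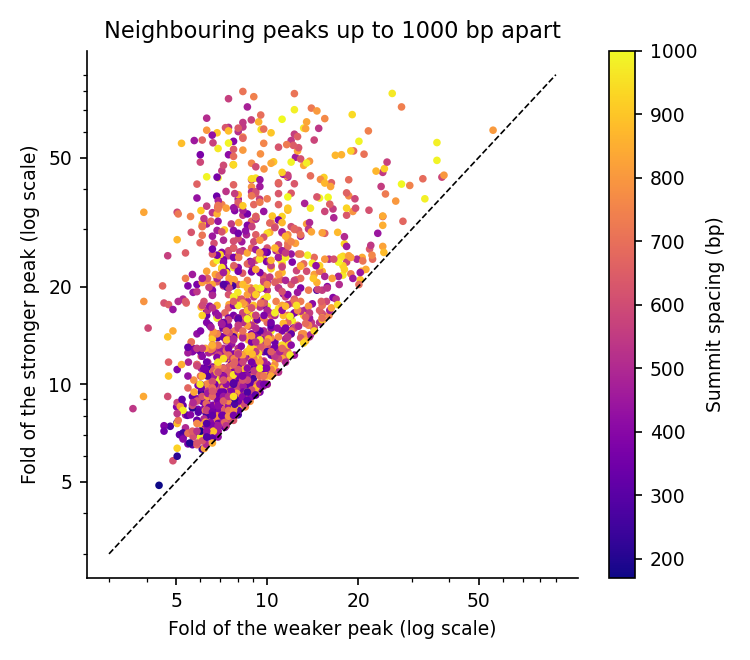
Fold enrichment of the stronger against the weaker peak of each of 1304 neighbouring pairs (points, log scales, dashed line of equal folds), coloured by the distance between summits in bp. Many weaker folds lie near 8 (the median weakest fold per cluster is 8.05) over the whole range of stronger folds, and a single pair, on chromosome 17, has both folds above 50.

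Close and distant pairs differed in strength and in balance. In the 247 pairs spaced up to 400 bp the stronger peak had a median fold of 10.6, the weaker 7.61, and their ratio a median of 1.35. In the 281 pairs spaced above 800 bp the corresponding values were 18.9, 9.17 and 1.74. The classes between them were intermediate, with ratios of 1.56 from 400 to 600 bp and 1.69 from 600 to 800 bp. Median width rose alongside, from 214 bp in the closest pairs to 286 bp in the widest spaced. Wide peaks cannot have summits very close together without touching, and no autosomal peaks overlapped, so the list itself links width and spacing. The separate parts of strength, width and spacing were not tested. In clusters of 2, the stronger peak was a median of 316 bp wide and the weaker 212 bp. Summits were central in both, with 51.2% of the width between the summit and the edge facing the partner in the stronger peak and 51% in the weaker.

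The most unequal pairs placed a peak with a fold below 8 beside a peak above 50. On chromosome 12, a peak at 120104853 to 120104998 with a fold of 5.21 was followed 450 bp further on by a peak at 120105449 to 120106075 with a fold of 55.3, a ratio of 10.6. Chromosome 5 held a fold of 66.1 at 43007571 to 43008106, and the neighbouring peak at 43008191 to 43008386, only 84 bp from its edge, had 6.31. On chromosome 3, folds of 75.9 and 7.45 were found at 119357661 to 119358276 and 119358489 to 119358633. In each of these 3 pairs the stronger peak was also the wider, at 627, 536 and 616 bp against 146, 196 and 145 bp. The same held on chromosome 7, with 56.4 at 91186608 to 91187137 beside 5.74 at 91187271 to 91187431. It held on chromosome 19 too, with 60.7 at 2089047 to 2089637 beside 6.31 at 2090003 to 2090155. There a further peak, of fold 11.7, had its summit 348 bp beyond that of the weaker peak. The pairs on chromosomes 5 and 19 were not retained at a −log10 q of at least 10, since both weaker peaks had 9.85.

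Clusters in which every peak was strong were few, and strong peaks were a minority of the members. All folds were at least 20 in 34 of the 1187 clusters (2.86%), while 413 (34.8%) had a strongest fold of at least 20. Single peaks reached that fold in 18.4% of members and 22.9% of all autosomal peaks. How many such clusters that share alone would give was not tested. In 262 clusters (22.1%) no fold reached 10. Folds below 10 were found in 46.8% of members and 39.2% of the other autosomal peaks. The most evenly strong pair was on chromosome 17, from 7257536 to 7258765, with folds of 60.7 and 55.8 at summits 804 bp apart. It was the only 1 of the 67 clusters with a fold of at least 50 in which every peak reached 50. The next were on chromosome 15 from 57090059 to 57091424, with folds of 44.1 and 38.4, and on chromosome 17 from 43124501 to 43126104, with 55.6 and 36.4. Both peaks were also strong on chromosome 8 from 11180315 to 11181711 (36.4 and 49) and on chromosome 1 from 78578842 to 78580239 (33.2 and 37.3). In these 5 pairs the summits were 802 to 990 bp apart.

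The clusters that held the most significant peaks were pairs of a very strong and a much weaker peak. On chromosome 11 from 65188391 to 65190451, a peak of fold 78.8 and 780 bp lay 395 bp from a peak of fold 25.9 and 886 bp. On chromosome 19 from 47733736 to 47734929, a fold of 79.9 stood beside 8.31, with 307 bp between the edges. Chromosome 1 from 43406508 to 43407675 paired 78.7 with 12.3. In each of these 3 regions another summit lay a little outside the limit, 1197, 1258 and 1478 bp away. On chromosome 20 from 5099972 to 5101114 folds of 9.03 and 77 were found 743 bp apart, with the next summit at 6633 bp. On chromosome 19 from 12899426 to 12901293 folds of 19.1 and 67.8 were 940 bp apart, and the stronger peak was 1175 bp wide. The partners of these 5 peaks, picked by q-value, ranged in fold from 8.31 to 25.9.

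Clusters of 4 summits were the largest, and 6 of the 13 were on chromosome 1, which carried 11.1% of autosomal peaks and 12.5% of the members. The others were on chromosomes 2, 4, 10, 15, 17 (with 2) and 19. Their outer spans ran from 1320 to 2804 bp with a median of 1885 bp. Their 39 spacings ran from 250 to 980 bp with a median of 512 bp, and the gaps between edges from 60 to 759 bp. The first and last summit were more than 1000 bp apart in all 13, so each is a chain of neighbours. A fold of at least 20 was reached by 5 of the 52 peaks (9.62%), beside 18.4% of all members and 22.9% of all autosomal peaks. Folds below 10 were found in 28 of them (53.8%), in 46.8% of all members and in 39.2% of the other autosomal peaks.

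In a few of these clusters 1 peak stood above the others. The clearest was on chromosome 1 from 203618680 to 203620564, where folds of 5.27, 7.08, 35.8 and 9.03 followed each other and the third peak was 720 bp wide; its first peak had a −log10 q of 9.8. Also on chromosome 1, from 46987728 to 46989879, the order was 32.3, 9.17, 10.0 and 19.5, with strong peaks at the 2 ends. On chromosome 10 from 12084389 to 12086193, folds of 8.29, 6.83, 21.2 and 12.9 put the highest at the third summit. The strongest peak was the third in 6 of the 13 clusters, the first in 5, and the second and the fourth in 1 each.

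The cluster with the most high folds was the one on chromosome 1 from 6661261 to 6663870. Its folds were 17.3, 20.3, 21 and 7.74, and its first 3 peaks were 518, 524 and 484 bp wide. The chain next in order of strongest fold was on chromosome 17 from 4277227 to 4279101, with 8.31, 9.17, 18.9 and 11.7. Folds of 7.61, 11.7, 9.17 and 15.7 were found on chromosome 1 from 117602484 to 117604907. The shortest of all 13, on chromosome 15 from 31557825 to 31559144, had folds of 12.5, 5.47, 13 and 10.6, and a further summit lay 1496 bp away.

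The remaining 6 clusters of 4 were even, with the highest fold less than 2 times the lowest. The most even was on chromosome 4 from 159592119 to 159593504, with folds of 8.88, 8.6, 6.59 and 8.6 and the next summit 110901 bp away. On chromosome 17 from 4851784 to 4853372, folds fell in order of position from 13.2 to 12, 10.9 and 8.02. The longest cluster of all, on chromosome 1 from 39279312 to 39282115, had folds of 7.92, 11.5, 6.83 and 9.56. No peak of these 6 clusters exceeded a fold of 13.8. Chromosome 1 from 149822255 to 149824096 had 12.6, 9.74, 10.1 and 6.83. On chromosome 2 from 43452476 to 43454430 the folds were 13.8, 9.17, 7.32 and 7.74. On chromosome 19 from 54693129 to 54695170 they were 5.47, 9.74, 10.6 and 7.17.

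**Figure D4:**
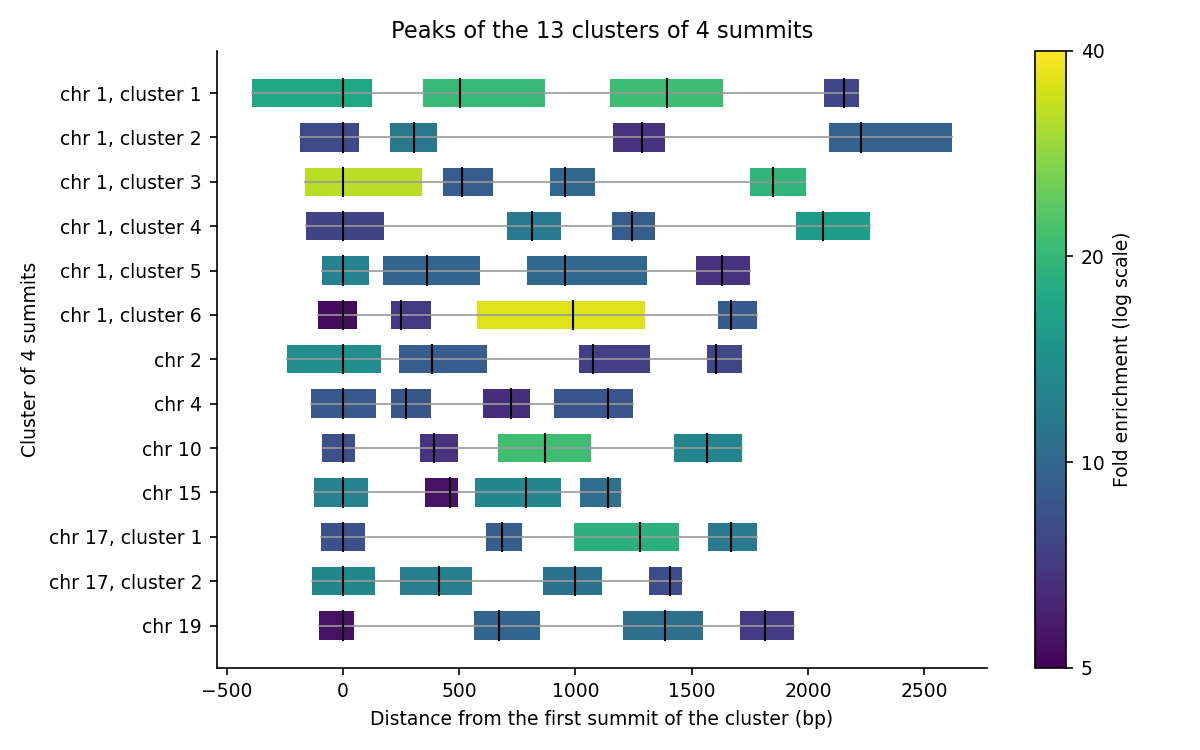
Peaks of the 13 clusters of 4 summits, 1 cluster per row in order of chromosome and position, drawn to scale as distance in bp from the first summit. Boxes are peaks coloured by fold enrichment on a log scale and black ticks are summits; the highest folds are the first box of the third row (32.3) and the third box of the sixth row (35.8).

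The 273 peaks in the 91 clusters of 3 summits had a median fold of 10.3, the same as the 2166 peaks in pairs, and the 52 peaks in clusters of 4 had 9.65. The strongest fold per cluster, which rises with the number of peaks by construction, had a median of 14.3 in pairs, 18.3 in clusters of 3 and 13.8 in clusters of 4. The clusters of 3 spanned a median of 1512 bp between outer edges. In 20 of them the first and last summit were also within 1000 bp of each other. The longer of the 2 spacings was a median of 1.34 times the shorter. The strongest peak was the last in 42 clusters, the first in 25 and the middle in 24; this order follows chromosome coordinates and has no relation to the direction of any gene.

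Of the 20 widest clusters of 3 or 4 summits, all at least 1885 bp across, 13 had 3 summits. The widest of these was on chromosome 16 from 21529575 to 21531885, with folds of 24.1, 33 and 10.4 and a further summit 1542 bp away. On chromosome 15 from 75743013 to 75745128, folds of 27.8 and 41.4 in peaks of 743 and 798 bp were followed by 5.86. The first 2 of its summits were 1000 bp apart, exactly at the limit. On chromosome 9 from 115095079 to 115096980, the first peak had a fold of 55.3 and the others 9.74 and 16. The contrast between neighbours was largest on chromosome 3 from 5018998 to 5021231, where a peak of fold 3.91 lay between 18 and 33.9 and was 82 bp from the edge of the latter, a peak of 944 bp. No close summits were left in that region at a −log10 q of at least 10. Elsewhere on chromosome 3, from 194850157 to 194852289, folds of 9.46, 11.7 and 37.8 were found, the last 2 at summits 998 bp apart. Low folds throughout, 7.57, 5.04 and 6.35, occurred on chromosome 8 from 134510779 to 134512712. Folds were higher and more even on chromosome 8 from 145024962 to 145027167, at 17.5, 24.6 and 14.3. Chromosome 20 from 305925 to 308094 had 11.7, 17.6 and 17.1, and chromosome 15 from 65174462 to 65176506 had 22.2, 25 and 13.6.

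Close neighbours were present on every autosome, at unequal rates. The share of peaks with a neighbour was highest on chromosome 19, where 121 of 691 peaks (17.5%) were members, and on chromosome 12, with 170 of 994 (17.1%). Chromosome 1, with 312 of 2062 (15.1%), and chromosome 17, with 136 of 909 (15%), followed. The lowest shares were on chromosome 6, with 67 of 785 peaks (8.54%), chromosome 21, with 24 of 264 (9.09%), and chromosome 3, with 103 of 1105 (9.32%). Per length of chromosome the range was wider, from 0.392 members per Mb on chromosome 6 to 2.07 on chromosome 19, against 0.894 over the autosomes.

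Chromosomes with more peaks per Mb tended to have higher shares. Over the 22 autosomes, which share 1 library, the share of members and the number of peaks per Mb had a Pearson's r of 0.613 and a Spearman's rho of 0.645. Both quantities come from the summit positions the rule used. Denser summits have more neighbours within 1000 bp by construction, so these coefficients are a description and no test. The order was not that of density throughout. Chromosome 12 had 7.44 peaks per Mb and a share of 17.1%, whereas chromosome 21, at 7.03 peaks per Mb, had 9.09%. Chromosome 22 was the densest, at 12 peaks per Mb, and had 14.3%.

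**Figure D5:**
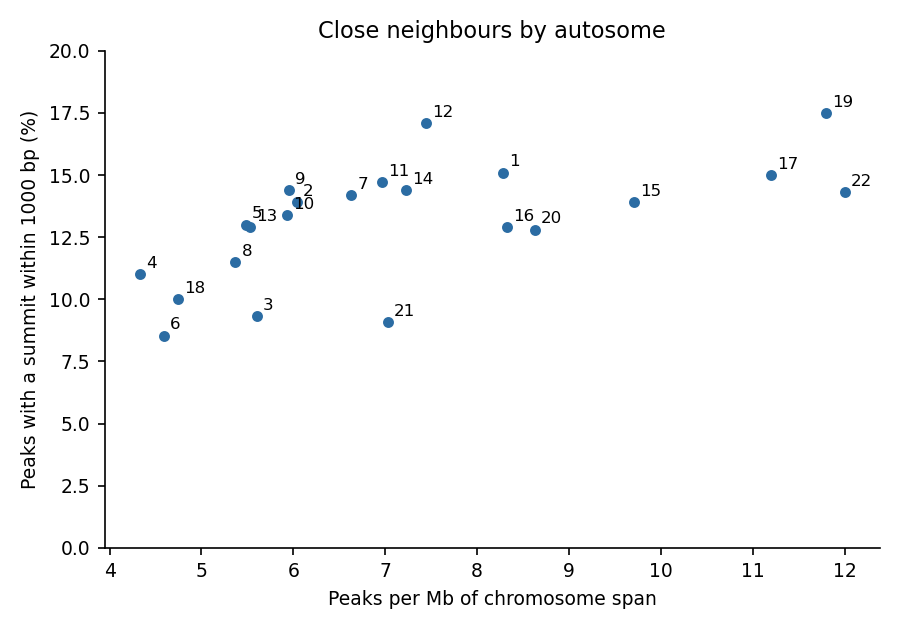
Share of peaks with another summit within 1000 bp (vertical axis, percent) against peaks per Mb of the span between first and last summit (horizontal axis) for the 22 autosomes, labelled by number. Chromosomes 19 and 12 are highest at 17.5% and 17.1%, and chromosomes 6, 21 and 3 are lowest at 8.54% to 9.32%.

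Clusters were scattered over 766 of the 2474 autosomal windows of 1 Mb that held a peak, and 502 of these windows had 1 cluster. At least 5 clusters were found in 15 windows. The highest number, 8, was reached on chromosome 19 from 1 to 2 Mb, where 16 of 47 peaks were members, and on chromosome 9 from 139 to 140 Mb, with 17 of 48. Chromosome 2 from 242 to 243 Mb had 6 clusters with 13 members among only 22 peaks. Chromosome 14 from 35 to 36 Mb had 5 clusters with 10 members among 17 peaks. In both of these windows members outnumbered the other peaks.

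Clusters also tended to have further peaks around them. The nearest summit outside a cluster was a median of 14598 bp away, and for the 16029 other autosomal peaks the nearest summit was 24025 bp away. An outside summit lay within 2 kb of 146 clusters (12.3%) and within 10 kb of 488 (41.1%), compared with 8.81% and 31.9% of the other peaks. Distances from one cluster to the next on the same chromosome were below 10 kb in 38 of 1165 cases, and the shortest was 1091 bp. All these distances come from the positions the rule used, and both kinds of distance start beyond 1000 bp by that rule.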

How the data were processed

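TP73 ChIP-seq of TL-Om1 cells was taken from the authors' peak list of 1 ChIP library; single-end reads were 50 bases long, per the labels' protocols. Bowtie2, SAMtools and MACS2 2.1.1.2016030 were used with hg19, per the submitters' processing notes; for the parameters, nothing was found (not given in the sources used here). The labels name whole cell extract as control, whereas the deposited peak names contain IgG, so the control library is not settled. Per the file's layout, the authors' deposited values are start and end, a score (not used), the fold (a ratio of ChIP to background), the −log10 p-value and −log10 q-value, and the summit's distance from the start. Depth is not a column of the list.

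Summits were computed as start plus distance. Peaks on X (331), Y (56) and the mitochondrial sequence (1) were left out of the members. Consecutive summits up to 1000 bp apart were chained into clusters, and the edge gap is the number of bases between facing edges. The chaining code was checked on simulated positions of a single chromosome, with groups set well beyond the limit from each other. That check does not cover spacings just outside the limit. Named regions include the 20 widest clusters of the 2 largest sizes. Of those with 3 summits only some are described, not chosen by width, and the rest are counted. Also named are 5 clusters each with the highest q-value and the highest weaker fold. Named pairs, which can be part of a larger cluster, are 5 each with the smallest gap, the largest gap and the largest ratio of folds, ties in order of position. The remaining clusters of 4 and the closest summits were added after their values were seen. Planned descriptions of motifs and genes need hg19 sequence or annotation and were not run. Members and lists were chosen with earlier results of these data known. Python 3.11.15 was used with scipy 1.17.1, pandas 2.3.3, numpy 2.4.6 and, for plots, matplotlib 3.10.9.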

Additional observations from a re-analysis of the deposited data

Results flagged for a closer look

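Close neighbours also occurred outside the autosomes, in peaks the comparisons above do not use. Chromosomes X and Y are listed because each held more than 3 such peaks, which is a rule for listing and no test. Over the autosomes the share was 13.5%. On chromosome X, 20 of 331 peaks (6.04%) had another summit within 1000 bp, all in the form of 10 pairs, with a median fold of 8.74 against 12 at the other X peaks. On chromosome Y, 8 of 56 peaks (14.3%) did, in 4 pairs, with a median fold of 9.74 against 12.2. Differences between these chromosomes and the autosomes were not tested.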

How the results depend on the processing

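Under each of the 7 settings tried apart from limits of 750 and 1500 bp, close peaks had a lower median fold than the other peaks of the same selection. A limit of 500 bp gave 903 members, 445 clusters (11 of 3 or more), a median spacing of 392 bp, gap of 132 bp, width of 226 bp, fold of 9.15, fold ratio of 1.4, and 9.86% with a fold of at least 20. A limit of 2000 bp gave 3903, 1793 (260), 822, 497, 264, 10.8, 1.62 and 20.7% in the same order; spacing and gap follow the limit by construction. A −log10 q of at least 20, applied before neighbours were sought, gave 1079, 523 (31), 668, 308, 307, 13.7 and 28.5%, and a fold of at least 10 gave 757, 369 (19), 693, 314, 328, 15.5 and 34.3%, with the ratio at 1.52 in both. Over all peaks of the same selection, a fold of at least 20 was reached by 22.9% at limits of 500 and 2000 bp. It was reached by 31.9% at that q-value and 38.4% at that fold, so the members had the lower share each time. Members made up 13.5% of peaks as deposited, 8.1% at that q-value and 6.84% at that fold. A shorter list leaves fewer neighbours by construction. Merging peaks with gaps below 142 bp left 69 clusters of 3 or more, a median spacing of 665 bp and a gap of 346 bp; the other numbers of members and clusters and medians, and all of these with −log10 q of at least 10 or with X and Y included, stayed within 1.5 times (counts) or within the 95% binomial interval of the value as deposited. The 95% binomial interval treats the peaks or pairs of 1 library as independent. It served only to label changes between settings and measures no spread between cultures. Limits of 750 and 1500 bp, added after seeing the data, gave 1825 and 3363 members. Single regions were less stable: of 56 named, 48 kept their number of close summits at −log10 q of at least 10 (8 had fewer), 22 at 20, 31 after merging, 14 at a fold of at least 10, 14 with a limit of 500 bp, and 56 with a limit of 2000 bp or with X and Y included. Motif and gene alternatives were not run. Leaving out a library was not an option with 1 per group. No paired analysis was possible because only 1 ChIP library was called.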

Other observations

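With the limit at 2000 bp, 2 clusters reached 6 summits, both chosen after their values were seen. On chromosome 10 from 104401824 to 104408312, a peak of fold 78.2 and 1139 bp was followed by peaks of fold 6.59, 9.17, 12, 8.01 and 10.3, at spacings from 975 to 1249 bp. Only the spacing of 975 bp, between the third and the fourth, falls inside 1000 bp, so most of this array was outside the members described above. On chromosome 1 from 17764302 to 17770409, the folds were 12.3, 7.17, 10.6, 30.6, 10.6 and 40.2. The strongest peak of that array was the last, 1561 bp beyond the fifth.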
